A study of Mus musculus with 6 samples.

Results

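The transcripts examined here were those of 10 growth factor genes of the EGF and FGF families that act on keratinocytes and other skin cells during wound repair. They were chosen by name as known wound growth factors: 6 ligands of the EGF receptor (Areg, Ereg, Epgn, Hbegf, Tgfa and Btc), the receptor gene Egfr, and the FGF genes Fgf2, Fgf7 and Fgf10. All 10 were among the 33184 gene IDs measured, and all 10 passed the filter of a mean of at least 0.5 FPKM that left 16005 genes for testing. FPKM is a number of fragments, here apparently of single reads, divided by gene length and library total, so levels of different genes can be compared per length.

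RNA-seq was performed on wound tissues of db/db mice, a diabetic line without a functional leptin receptor that served in both groups. A round wound of 6 mm through epidermis and dermis was injected around its edge at dpi1 (1 day post-injury) with either SFRP2-siRNA or the control NC-siRNA, and the tissue was frozen at dpi4. Of the 6 libraries, 3 carry the label NC and 3 the label SFRP2-siRNA. The sample titles carry day 3, the age of the mice is not given in the sources used here, and no source says whether each library was 1 animal. If the libraries of a group share an animal or pool, the p-values measure only the spread between these samples. The titles of that label carry the numbers siRNA-1 to siRNA-3, which are also the names of 3 SFRP2 siRNA sequences of the study, so a difference between sequences cannot be told apart from one between samples.

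Sfrp2, the gene the siRNA was directed against, was higher in the libraries that carry its label. It had 11.6, 40.6 and 14.1 FPKM in NC 1, 2 and 3, and 50.6, 54.6 and 55.2 FPKM in the SFRP2-siRNA-labelled libraries 1, 2 and 3. The log2 fold change was 1.45 (SE 0.43, limma adjusted p = 0.518). The transcript of the target thus goes against the labels, the reason was not tested, and every direction below is given between labels. The library totals recovered from the FPKM values and gene lengths lay between 42.9 M and 47.1 M reads, where M stands for mega. Transcripts of the mitochondrial genome made up 35.8%, 22.2% and 17.4% of all FPKM in NC 1, 2 and 3, and 16.6%, 11.8% and 13.8% in the SFRP2-siRNA-labelled libraries. All genes tested had a median log2 fold change of 0.13, and 71.8% of them lay above 0. Rescaling by median-of-ratios size factors brought that median to 0.00, so differences are also stated with that median subtracted.

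EGF receptor ligands are made as membrane proteins, cut off the cell surface by ADAM proteases and bound by the receptor kinase EGFR on the same or neighbouring cells. In skin, keratinocytes make several of them, and the receptor drives their migration and division over a wound. Fgf7 (keratinocyte growth factor) and Fgf10 are made mainly by dermal fibroblasts and act on the epithelial form of Fgfr2, while Fgf2 acts on several FGF receptors, among others of endothelial cells and fibroblasts. Both receptor families signal through ERK, which induces its own inhibitors, such as the Sprouty and Spred proteins.

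Areg, Ereg, Epgn and Btc lie next to each other on mouse chromosome 5 in the RefSeq annotation of GRCm38.p6, in the order Epgn, Ereg, Areg, Btc. Non-coding gene models were the only other genes between them. The other genes lie apart, with Fgf7 on chromosome 2, Fgf2 on 3, Tgfa on 6, Egfr on 11 and Fgf10 on 13. The RefSeq promoter table held 8 of the 10 genes, and had no entry for Ereg and Hbegf. The 250 bases before the start are shown for the pair of highest ligands, which share that chromosome 5 cluster, and for Fgf7, whose groups separated most clearly. The windows were chr5:91139349-91139598 for Areg, chr5:91027267-91027516 for Epgn and chr2:126034408-126034657 for Fgf7, all on the plus strand of GRCm38.p6. Capitals mark matches to the searched motifs, and the letters are the reference sequence.
Areg: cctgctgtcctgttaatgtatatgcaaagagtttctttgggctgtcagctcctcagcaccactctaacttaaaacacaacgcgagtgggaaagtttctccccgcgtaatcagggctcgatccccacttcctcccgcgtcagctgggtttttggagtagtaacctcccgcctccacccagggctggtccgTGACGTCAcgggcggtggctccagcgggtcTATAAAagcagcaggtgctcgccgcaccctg
Epgn: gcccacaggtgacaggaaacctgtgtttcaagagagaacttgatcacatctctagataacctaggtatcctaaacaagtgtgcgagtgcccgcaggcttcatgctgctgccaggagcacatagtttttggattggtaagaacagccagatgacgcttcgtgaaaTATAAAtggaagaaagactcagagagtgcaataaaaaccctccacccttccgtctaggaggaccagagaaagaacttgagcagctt
Fgf7: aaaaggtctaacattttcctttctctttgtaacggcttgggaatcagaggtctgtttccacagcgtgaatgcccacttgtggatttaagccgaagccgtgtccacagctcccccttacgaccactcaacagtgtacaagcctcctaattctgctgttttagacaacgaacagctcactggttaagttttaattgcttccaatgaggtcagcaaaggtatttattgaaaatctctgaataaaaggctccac

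4 motifs were searched on both strands of the windows of 8 genes. The AP-1 site was spelled TGACTCA and the cyclic AMP response element (CRE) was spelled TGACGTCA. The TATA box was searched as TATAAA, and the E-box, a site of basic helix-loop-helix factors, as CACGTG. The Areg window held the CRE, beginning 61 bases before the start, and the TATA box, beginning 31 bases before it. The Epgn window held the TATA box, beginning 86 bases before the start. Matches did not overlap each other, and the windows of Fgf7, Tgfa, Btc, Egfr, Fgf2 and Fgf10 held none of these letters. Over all 32851 windows of the same length, 1.55% held the CRE, 12.4% the TATA box, 4.46% the AP-1 site and 6.02% the E-box. A match describes the letters of the window only. The genome build of the deposited values is not given in the sources used here, and the expression values do not depend on these coordinates.

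None of the 10 growth factor genes passed the threshold of an adjusted p under 0.05 and a log2 fold change beyond 1 in size, and neither did any of the 16005 genes tested (0%). At an unadjusted limma p under 0.05, 1 of the 10 (Fgf7) was called, beside 9.58% of all genes tested, 6.72% higher and 2.86% lower. Fgf7 was also the only one of the 10 whose groups did not overlap, beside 17.8% of all genes (13.9% higher and 3.92% lower), so both counts were close to or below the background. Leaving out NC 1 raised the number of genes without overlap to 4 of 10, with Epgn, Hbegf and Btc lower beside Fgf7 higher, while the share of all genes became 23.1%. Under median-of-ratios scaling it was 2 of 10, Btc and Fgf7, beside 13.2% of all genes. It was 2 of 10 without NC 2 (Fgf2 and Fgf7, all genes 32.6%) and 2 of 10 without the library labelled SFRP2-siRNA 2 (Ereg and Fgf7, all genes 26.7%). With fewer libraries a group, more genes separate. The fold changes were above 0 for 5 of the 10, beside 71.8% of all genes tested. Their median was −0.11, beside 0.13 for all genes, and 1 of the 10 lay above that all-gene median. Relative to it, the differences were −0.59 for Ereg, −0.47 for Epgn, −0.47 for Hbegf, −0.42 for Tgfa and −0.35 for Btc. They were −0.12 for Egfr, −0.09 for Fgf10, −0.04 for Areg, −0.03 for Fgf2 and 0.75 for Fgf7.

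**Figure D1:**
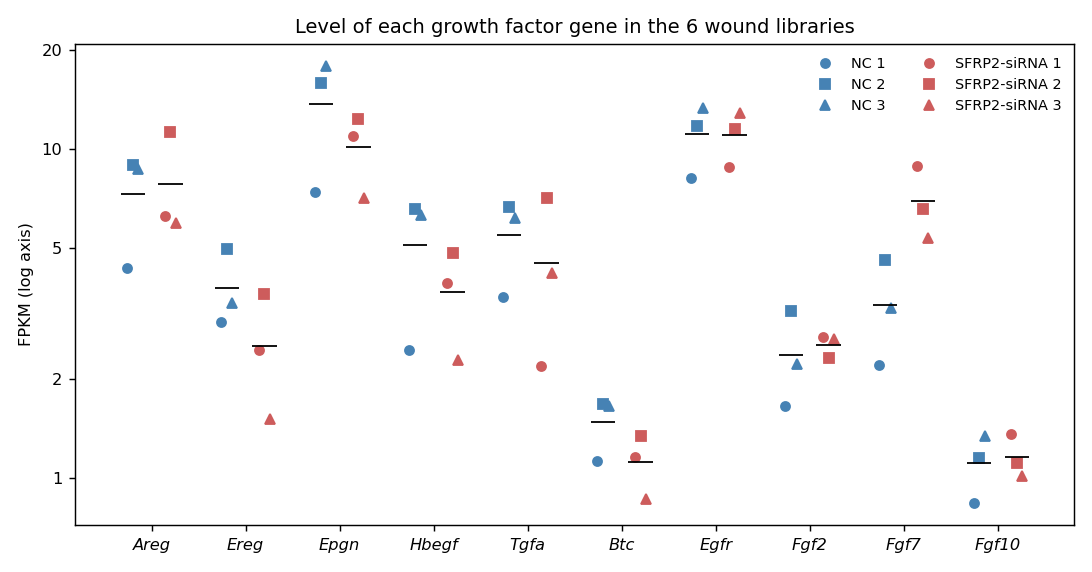
FPKM on a log axis for each of the 10 genes, with blue symbols for the 3 NC libraries, red symbols for the 3 libraries labelled SFRP2-siRNA and a black line at each group mean. Symbols of the 2 groups interleave for every gene but Fgf7, where 2.21 to 4.59 FPKM lie below 5.36 to 8.86.

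The levels of the 10 transcripts spanned about an order of magnitude. Epgn was highest with a mean of 11.9 FPKM over the 6 libraries, and Egfr had 11.1, Areg 7.56, Fgf7 5.14, Tgfa 4.98, Hbegf 4.38, Ereg 3.15, Fgf2 2.45, Btc 1.30 and Fgf10 1.13. The ranges over libraries of all 9 pairs of neighbours in this order overlapped. Egfr was nevertheless above Areg in 6 of 6 libraries and Fgf2 above Btc in 6 of 6, whereas Fgf7 was above Tgfa in 2 of 6. The coefficient of variation over the 6 libraries was largest for Fgf7 at 46.2%, followed by Hbegf at 42.0%, Tgfa at 39.4%, Ereg at 36.8%, Epgn at 36.7% and Areg at 33.2%. It was 24.4% for Btc, 21.6% for Fgf2, 19.1% for Egfr and 17.5% for Fgf10. NC 1 was the lowest library for 5 genes (Areg, Egfr, Fgf2, Fgf7 and Fgf10), and the library labelled SFRP2-siRNA 3 was the lowest for 4 (Ereg, Epgn, Hbegf and Btc). These are FPKM as deposited. NC 1 also had the smallest median-of-ratios size factor, 0.845, and the largest part of mitochondrial transcripts, 35.8%. The part of scaling in which library was lowest was not tested.

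Of the EGF receptor ligands, Epgn (epigen, ENSMUSG00000035020) was the most abundant in each of the 6 libraries. It had 7.39, 15.9 and 17.9 FPKM in NC 1, 2 and 3 and 11.0, 12.3 and 7.11 FPKM in the SFRP2-siRNA-labelled libraries 1, 2 and 3. The lowest NC library lay beside the lowest SFRP2-siRNA-labelled library, and the groups overlapped. The group means were 13.7 ± 5.57 and 10.1 ± 2.71 FPKM (SD, n = 3 each). On the log2 scale they differed by −0.35 (SE 0.34, 95% interval −1.17 to 0.47, limma adjusted p = 0.656).

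Hbegf (ENSMUSG00000024486) encodes heparin-binding EGF, a ligand that is shed early at wound edges. Its values were 2.45, 6.56 and 6.28 FPKM in NC and 3.91, 4.82 and 2.27 FPKM in the SFRP2-siRNA-labelled libraries. NC 1 and SFRP2-siRNA 3 were again the lowest libraries, next to each other. The labels differed by −0.34 on the log2 scale (SE 0.36, interval −1.19 to 0.51, limma adjusted p = 0.671). Centred on its mean, Hbegf followed Epgn closely, with a root mean square difference of 0.07 on the log2 scale, against a standard deviation of 0.47 of Hbegf itself over the 6 libraries.

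Areg (amphiregulin, ENSMUSG00000029378), a ligand that keratinocytes also use to stimulate themselves, had 4.33, 8.94 and 8.66 FPKM in NC. It had 6.23, 11.2 and 5.96 FPKM in the SFRP2-siRNA-labelled libraries, of which replicate 2 was the highest of all 6. The groups overlapped, with means of 7.31 ± 2.59 and 7.81 ± 2.98 FPKM (SD, n = 3 each) and a log2 fold change of 0.09 (SE 0.32, interval −0.67 to 0.85, limma adjusted p = 0.904). Relative to the median of all genes the difference was −0.04, and its sign depended on the scaling.

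Tgfa (transforming growth factor alpha, ENSMUSG00000029999) had 3.53, 6.67 and 6.18 FPKM in NC and 2.19, 7.09 and 4.20 FPKM in the SFRP2-siRNA-labelled libraries. Both the lowest and the highest library carried the SFRP2-siRNA label. The log2 fold change was −0.30 (SE 0.36, interval −1.17 to 0.57, limma adjusted p = 0.708), and without the library labelled SFRP2-siRNA 1 it was 0.04.

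Ereg (epiregulin, ENSMUSG00000029377), which also activates the receptor ErbB4, had 2.98, 4.95 and 3.41 FPKM in NC and 2.44, 3.62 and 1.51 FPKM in the SFRP2-siRNA-labelled libraries. Only SFRP2-siRNA 2 lay within the NC range. Group means were 3.78 ± 1.03 and 2.52 ± 1.06 FPKM (SD, n = 3 each), and the log2 fold change was −0.46 (SE 0.26, interval −1.08 to 0.15, limma adjusted p = 0.536). This was the largest negative difference of the 10 genes, −0.59 relative to the median, and 4.86% of all genes tested had a lower fold change.

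Btc (betacellulin, ENSMUSG00000082361), the ligand at the far end of the chromosome 5 cluster, was low in all libraries. It had 1.12, 1.67 and 1.65 FPKM in NC and 1.15, 1.34 and 0.864 FPKM in the SFRP2-siRNA-labelled libraries. NC 1 lay within the range of the SFRP2-siRNA label. The log2 fold change was −0.23 (SE 0.15, interval −0.58 to 0.13, limma adjusted p = 0.564).

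The mean log2 difference exceeded the standard deviation of both groups for 3 of the 10 genes, Ereg, Btc and Fgf7, beside 34.9% of all genes tested. The 4 ligand genes Ereg, Epgn, Hbegf and Btc kept a negative sign in each alternative fit in which they were tested, but their size moved with single libraries. With 1 library left out, Epgn ranged from −0.71 (without NC 1) to −0.13 (without NC 3) and Hbegf from −0.71 (without NC 1) to −0.10 (without SFRP2-siRNA 3). Ereg ranged from −0.68 (without SFRP2-siRNA 2) to −0.24 (without SFRP2-siRNA 3) and Btc from −0.34 (without NC 1) to −0.14 (without SFRP2-siRNA 3). All 6 intervals of the ligands included 0, and they reach as far as −1.19 (Hbegf) and 0.85 (Areg), so differences up to that size could be missed with 3 libraries a group.

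**Figure D2:**
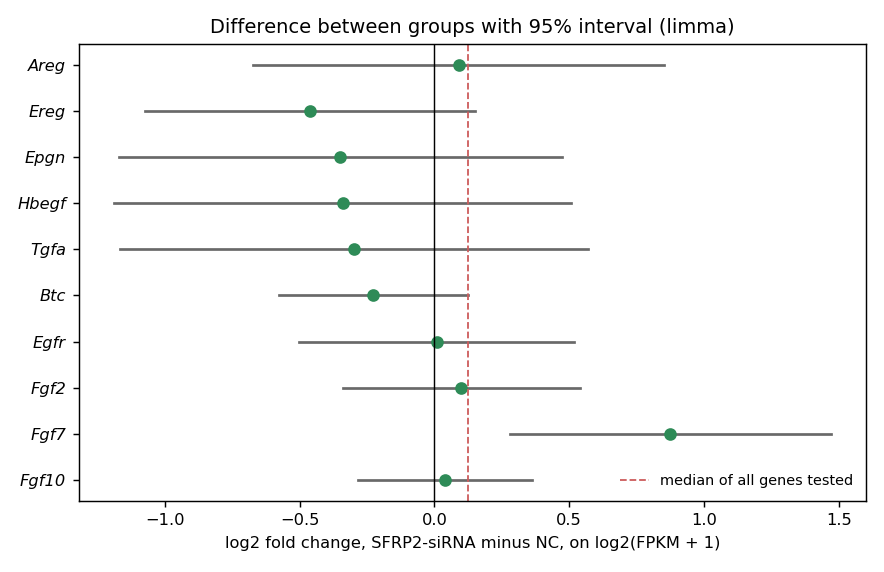
Log2 fold change of each gene on the log2(FPKM + 1) scale, libraries labelled SFRP2-siRNA minus NC, as a point with its 95% limma interval, with a dashed line at the median of all genes tested (0.13). The interval of Fgf7, 0.28 to 1.47, lies above 0, and those of the other 9 genes include it.

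The EGF receptor ligands were next added up, including Egf, 7 ligands in all. Their summed level was 22.2, 45.3 and 44.9 FPKM in NC 1, 2 and 3 and 27.6, 41.2 and 23.2 FPKM in the SFRP2-siRNA-labelled libraries 1, 2 and 3. The 3 libraries above 40 FPKM thus came from both labels. Mean sums were 37.5 ± 13.2 and 30.6 ± 9.41 FPKM (SD, n = 3 each). Per Egfr transcript, the ligand sum was 2.72, 3.85 and 3.38 in NC and 3.13, 3.57 and 1.80 in the SFRP2-siRNA-labelled libraries.

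Epgn made up 33.3%, 35.0% and 39.9% of the ligand sum in NC and 39.8%, 30.0% and 30.7% in the SFRP2-siRNA-labelled libraries, the largest share in each of the 6 libraries. Areg was steady within NC at 19.5%, 19.7% and 19.3%, and took 22.6%, 27.3% and 25.7% in the SFRP2-siRNA-labelled libraries. The Areg shares did not overlap between labels, with means of 19.5% ± 0.210 and 25.2% ± 2.39 (SD, n = 3 each). The Areg level itself overlapped, with a log2 fold change of 0.09, while the mean ligand sum was 37.5 FPKM in NC and 30.6 FPKM under the SFRP2-siRNA label. This measure has no background share over all genes, so the separation of 1 of 7 shares cannot be set against one. The shares of all other ligands overlapped between labels, and each share also depends on the levels of the other ligands. The shares were a description fixed without a test. Tgfa was between 13.8% and 18.1% in 5 libraries and 7.96% in SFRP2-siRNA 1. Hbegf took 9.82% to 14.5%, Ereg 6.53% to 13.4% and Btc 3.25% to 5.06%. Egf, the founding ligand of the family, made up 1.48% to 2.40% in 5 libraries and 5.37% in SFRP2-siRNA 3.

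**Figure D3:**
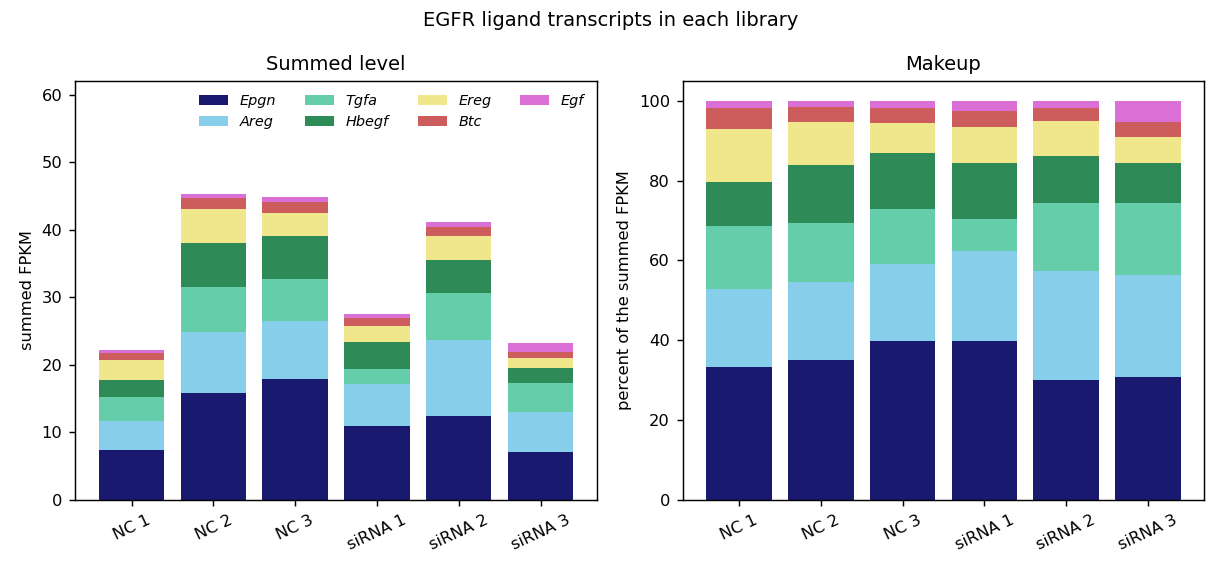
Stacked bars of 7 EGF receptor ligand transcripts in each of the 6 libraries, as summed FPKM on the left and as a percent of that sum on the right. The sums range from 22.2 FPKM in NC 1 to 45.3 FPKM in NC 2, and those of the SFRP2-siRNA-labelled libraries lie between them. The Areg share is 19.3% to 19.7% in NC and 22.6% to 27.3% in the SFRP2-siRNA-labelled libraries, and the shares of all other ligands overlap between labels. The shares were not tested and have no background over all genes.

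Egfr (ENSMUSG00000020122), the receptor kinase that binds these ligands, had 8.17, 11.8 and 13.3 FPKM in NC and 8.82, 11.5 and 12.8 FPKM in the SFRP2-siRNA-labelled libraries. The ranges of the labels nearly coincided. Group means were 11.1 ± 2.63 and 11.1 ± 2.05 FPKM (SD, n = 3 each), with a log2 fold change of 0.01 (SE 0.21, limma adjusted p = 0.986). The interval of −0.50 to 0.52 bounds the difference these libraries could miss, and the sign turned with the scaling. The Egfr pattern over the libraries was closest to Trp63, the transcription factor of basal keratinocytes, with a root mean square difference of 0.07 on the log2 scale among 139 genes of the pathway and marker lists, and next to Frs2, an adaptor of FGF receptors, at 0.08.

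Among the FGF genes, Fgf7 (ENSMUSG00000027208) had the largest difference of the 10 genes. Its level was 2.21, 4.59 and 3.28 FPKM in NC 1, 2 and 3 and 8.86, 6.54 and 5.36 FPKM in the SFRP2-siRNA-labelled libraries 1, 2 and 3. Each of the 3 libraries with the SFRP2-siRNA label was above each NC library. Group means were 3.36 ± 1.20 and 6.92 ± 1.78 FPKM (SD, n = 3 each), a ratio of 2.06. The log2 fold change was 0.88 (SE 0.25, interval 0.28 to 1.47), or 0.75 relative to the median of all genes. In limma the p was 0.0105 before adjustment, and the adjusted p = 0.518. An exact permutation test gave p = 0.1, its lower limit for 3 libraries a group. Of all genes tested, 99.0% had a lower fold change, and the recovered reads behind the values ran from 316 to 1235.

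Fgf10 (ENSMUSG00000021732), which acts on the same epithelial receptor form, was close between the labels. It had 0.838, 1.15 and 1.34 FPKM in NC and 1.36, 1.11 and 1.01 FPKM in the SFRP2-siRNA-labelled libraries, with overlapping groups. Its log2 fold change was 0.04 (SE 0.14, interval −0.28 to 0.36, limma adjusted p = 0.901), and its sign turned with the scaling. Fgf7 had thus 2.63, 3.99 and 2.45 times the FPKM of Fgf10 in NC and 6.50, 5.91 and 5.31 times in the SFRP2-siRNA-labelled libraries. This ratio was chosen after the values were seen and is given without a test.

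Fgf2 (basic FGF, ENSMUSG00000037225) had 1.65, 3.22 and 2.22 FPKM in NC and 2.68, 2.30 and 2.63 FPKM in the SFRP2-siRNA-labelled libraries. The libraries with the SFRP2-siRNA label lay within the NC range. Its log2 fold change was 0.10 (SE 0.18, interval −0.34 to 0.54, limma adjusted p = 0.805), with a sign that depended on the scaling. Its pattern over the libraries was closest to Hspg2 (perlecan, a heparan sulfate proteoglycan) at 0.10 and Tek (an endothelial receptor) at 0.12.

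The patterns of the remaining genes were compared in the same way, over 6 libraries and 139 listed genes, as a description. Fgf7 was closest to the macrophage genes Lyz2 (0.09) and Mrc1 (0.10), against its own standard deviation of 0.53. For Epgn the closest listed genes were Dsg3, a desmosomal cadherin of keratinocytes (0.20), and Il2rb (0.35). Hbegf was closest to Dsg3 (0.19) and Krt6a, a keratin of activated keratinocytes (0.31), and Areg to Lama3 (0.23), a laminin chain, and Dsg3 (0.26). Tgfa was closest to the syndecan Sdc1 (0.18) and Dsg1a (0.18), Ereg to Trac (0.24) and Il2rb (0.32), Btc to Sdc4 (0.12) and Klb (0.18), and Fgf10 to Nrg1 (0.11) and Shc1 (0.12). These values are differences in log2 units. Genes of small own spread, such as Fgf10 at 0.12 and Btc at 0.18, give small values with any other steady gene. The own standard deviation was 0.46 for Epgn, 0.47 for Hbegf, 0.40 for Areg, 0.48 for Tgfa and 0.38 for Ereg. A value near the own standard deviation, as for Btc with Klb, Fgf10 with both genes and Ereg with Il2rb, describes little likeness.

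The levels of cell type markers were set beside these genes, since in bulk tissue fewer cells of a type and less RNA per cell cannot be told apart. The 10 fibroblast markers summed to 949, 2039 and 1092 FPKM in NC 1, 2 and 3 and to 2342, 2360 and 2273 FPKM in the SFRP2-siRNA-labelled libraries. All 10 had a positive fold change (median 0.74), and 8 did not overlap between labels, beside 13.9% of all genes on that side. The 10 macrophage markers summed to 976, 1599 and 1056 FPKM in NC and to 2407, 1901 and 1776 FPKM in the SFRP2-siRNA-labelled libraries, with 10 positive fold changes (median 0.77) and 3 without overlap. Their defining genes were above 0 in each library. None of these markers passed the adjusted threshold.

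Fgf7 varied along with both lists. Mast cell and basophil markers, given below, also had sums that separated the labels. On the log2 scale Fgf7 minus the mean of the fibroblast markers was −3.91, −3.90 and −3.77 in NC and −3.42, −3.76 and −3.93 in the SFRP2-siRNA-labelled libraries. The groups then overlapped, with a difference of 0.15 in place of 0.88. The fibroblast marker mean itself was 0.72 higher and did not overlap between labels. Measured the same way, the other 9 genes were lower relative to fibroblast markers in the SFRP2-siRNA-labelled libraries, by −0.62 (Fgf2) to −1.18 (Ereg), and Areg alone of these 9 overlapped. On this scale 50.4% of all genes tested were lower without overlap and 0.00625% higher, since the marker mean itself was higher. Against the 10 keratinocyte markers Fgf7 differed by 1.08 and did not overlap, while the other 9 genes differed by −0.26 to 0.31 and all overlapped; of all genes, 5.06% were higher without overlap on that scale and 0.2% lower. These ratios were added after the values were seen and carry no test, and the part of cell makeup in the Fgf7 difference was not tested.

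**Figure D4:**
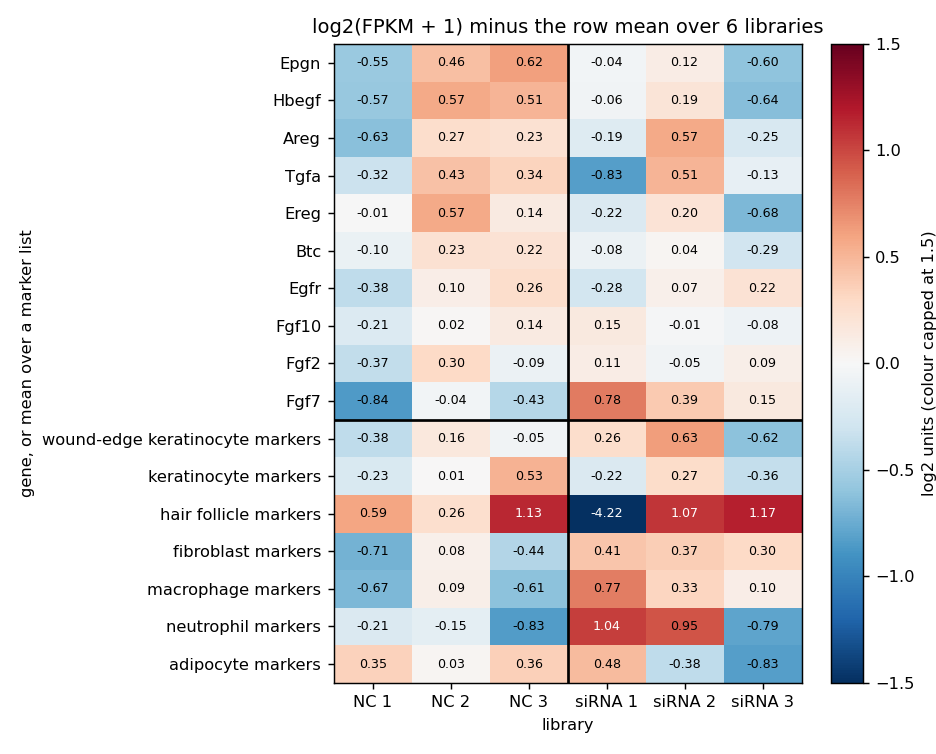
Heat map of log2(FPKM + 1) minus the row mean over the 6 libraries, for the 10 genes above the line and for the means of 7 marker lists below it, with the value printed in each cell and the colour capped at 1.5. Fgf7 runs from −0.84 in NC 1 to 0.78 in SFRP2-siRNA 1, as the macrophage markers do from −0.67 to 0.77, while Epgn and Hbegf are lowest in NC 1 and SFRP2-siRNA 3.

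The wound-edge keratinocyte markers, 10 genes such as Krt6a and Krt16 that are induced at the migrating edge, summed to 1763, 3000 and 2852 FPKM in NC and to 2624, 3291 and 1405 FPKM in the SFRP2-siRNA-labelled libraries. The 3 libraries with the highest sums, SFRP2-siRNA 2, NC 2 and NC 3, were those with the highest EGF receptor ligand sums. The centred mean of these markers on the log2 scale gave another order. SFRP2-siRNA 2 (0.63), SFRP2-siRNA 1 (0.26) and NC 2 (0.16) were highest there, and NC 3 was at −0.05. SFRP2-siRNA 1 had a ligand sum of 27.6 FPKM. None of these markers separated the labels. Relative to their mean, Ereg differed by −0.64 and did not overlap between labels, while the other 9 genes overlapped. Of all genes, 1.62% were lower and 0.437% higher without overlap on that scale. How much wound edge a tissue piece held was not recorded in the sources used here, and its part in the ligand levels was not tested.

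Hair follicle markers summed to 20.9 FPKM in SFRP2-siRNA 1 and to 2303 to 4498 FPKM in the other 5 libraries. That library was also the lowest for Tgfa. Of the FGF genes outside the 10, Fgf5, which limits hair growth, had 0.047 FPKM there and 1.20 to 6.54 FPKM in the others, and Fgf22 had 0.352 against 3.45 to 8.03 FPKM. Both were singled out after their values were seen. The libraries also differed in neutrophil markers (997 to 5563 FPKM), skeletal muscle markers (3101 to 11420 FPKM) and adipocyte markers (782 to 2103 FPKM), each with overlapping labels, and the part of these tissues in the growth factor values was not tested. Mast cell and basophil markers summed to 96.4 to 111 FPKM in NC and 141 to 201 FPKM in the SFRP2-siRNA-labelled libraries. Their median log2 fold change was 0.65, and 4 of 7 were higher without overlap, beside 13.9% of all genes on that side. Endothelial markers summed to 48.2 to 83.8 FPKM and T cell markers to 2.81 to 5.61 FPKM over all 6 libraries.

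The remaining genes of both pathways were described as 5 lists with 65 genes, of which 53 passed the filter. None passed the adjusted threshold. The groups did not overlap for 7 that were higher and 2 that were lower in the SFRP2-siRNA-labelled libraries, 17.0% of the 53 beside 17.8% of all genes. With median-of-ratios scaling the split was 4 and 4, beside 13.2% of all genes without overlap. With mitochondrially encoded genes left out of the scaling it was 1 and 2, beside 10.3% of all genes, and Fgfr4, Fgf1 and Klb were the genes left. The median log2 fold change was 0.09, close to the 0.13 of all genes.

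Among other EGF family ligands and receptors, 6 of 8 genes were tested and 0 separated the labels, with a median log2 fold change of −0.01. The smallest p belonged to Nrg4, a neuregulin that binds ErbB4, with 4.80, 3.99 and 3.48 FPKM in NC and 3.78, 1.58 and 1.44 FPKM in the SFRP2-siRNA-labelled libraries (log2 fold change −0.70, SE 0.27, limma adjusted p = 0.518). Egf had 0.412, 0.672 and 0.784 FPKM in NC and 0.661, 0.746 and 1.24 FPKM in the SFRP2-siRNA-labelled libraries (0.21 on the log2 scale, limma adjusted p = 0.594). Nrg3 and Erbb4 did not pass the filter.

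Genes that release the ligands or pass on or limit the EGFR signal had a median log2 fold change of 0.21 over 12 tested genes. Of these, Grb2, Cbl and Shc1 did not overlap and were higher in the SFRP2-siRNA-labelled libraries, beside 13.9% of all genes on that side. All 3 overlapped once mitochondrially encoded genes were left out of the scaling. Grb2, the adaptor that links the receptor to Ras, had 20.3, 26.3 and 24.1 FPKM in NC and 34.2, 30.2 and 29.7 FPKM in the SFRP2-siRNA-labelled libraries (log2 fold change 0.40, SE 0.15, limma adjusted p = 0.518). Cbl, the ubiquitin ligase that sends the receptor to degradation, had 3.34, 6.18 and 6.01 FPKM against 6.94, 6.68 and 7.10 FPKM (log2 fold change 0.39, or 0.16 without NC 1, limma adjusted p = 0.536).

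Of 15 other FGF ligands, 6 were tested, with a median log2 fold change of −0.27. Fgf1, acidic FGF, was the one that separated the labels, on the lower side, where 3.92% of all genes did so. It had 7.58, 7.35 and 8.19 FPKM in NC and 5.36, 5.66 and 6.11 FPKM in the SFRP2-siRNA-labelled libraries, a log2 fold change of −0.38 (SE 0.12, limma adjusted p = 0.518). Fgf23, a hormone of phosphate balance, had 2.05 FPKM in SFRP2-siRNA 1 and 0.287 to 0.671 FPKM in the other 5 libraries (log2 fold change 0.44, limma adjusted p = 0.561).

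FGF receptors, co-receptors and carriers had a median log2 fold change of −0.03 over 12 tested genes of 13. Fgfr1, the main receptor of connective tissue, had 14.0, 17.5 and 16.5 FPKM in NC and 20.9, 19.7 and 21.7 FPKM in the SFRP2-siRNA-labelled libraries (0.36 on the log2 scale, SE 0.13, limma adjusted p = 0.518). Fgfr4 had 0.621, 0.554 and 1.08 FPKM in NC and 1.54, 1.27 and 2.29 FPKM in the SFRP2-siRNA-labelled libraries (0.62, SE 0.19, limma adjusted p = 0.518). Both did not overlap between labels, and Klb, a co-receptor, separated them in the other direction. Of all genes, 13.9% were higher and 3.92% lower without overlap. Fgfr2, the receptor gene whose epithelial form binds Fgf7 and Fgf10, overlapped with 5.58, 4.15 and 7.50 FPKM in NC and 5.81, 6.59 and 8.62 FPKM in the SFRP2-siRNA-labelled libraries; it was named for its role.

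Among 17 ERK targets and feedback genes, all tested, the median log2 fold change was 0.18. Spry2 and Spred3, both inhibitors of the pathway, were higher without overlap, beside 13.9% of all genes on that side. Under median-of-ratios scaling, or with mitochondrially encoded genes left out of the scaling, both overlapped. Spry2 had 7.12, 7.11 and 8.08 FPKM in NC and 10.5, 8.65 and 8.73 FPKM in the SFRP2-siRNA-labelled libraries (0.28, limma adjusted p = 0.523). Spred3 had 1.52, 1.83 and 1.06 FPKM in NC and 2.30, 2.17 and 1.88 FPKM in the SFRP2-siRNA-labelled libraries (0.35, limma adjusted p = 0.520).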

How the data were processed

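Wound tissue RNA was sequenced as paired-end mRNA libraries, 3 per label. The authors deposited 1 table of FPKM values for 33184 Ensembl gene IDs; the submitters' processing notes name HISAT2, Subread and featureCounts, and the genome build and annotation are not given in the sources used here. A gene name table gave symbols to 32582 IDs. FPKM values are scaled to the library total, so a change in abundant transcripts, such as those of mitochondria, moves all others.

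The study's own test was a count model that called genes at an adjusted p under 0.05 when the log2 fold change exceeded 1 in size. FPKM are not counts, so these thresholds were applied with limma 3.58.1 in R 4.3.3 (lmFit, eBayes with an intensity trend) on log2(FPKM + 1), a scale that understates the change of low genes, for the 16005 genes that averaged 0.5 FPKM or more. Tests were two-sided, with Benjamini-Hochberg adjustment over all genes tested. Single values were also compared by an exact permutation test, which cannot go below p = 0.1 with 3 libraries a group. Gene lengths of GENCODE vM21 turned the FPKM of 97.2% of genes tested into whole reads in all 6 libraries (within 0.05 read). Among values of 1 to 20 reads, 64.57% were even, so mates were counted singly; 15557 genes were tested on these reads as an alternative. Scripts were tested on simulated data.

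The 10 genes, the 5 pathway lists and the 11 marker lists were chosen with earlier results of these data known. Named were the 10 genes, Sfrp2, the 2 genes of smallest unadjusted p in each pathway list, and the 2 listed genes most like each of the 10 (root mean square difference of centred log2 values); Fgf5, Fgf22 and Fgfr2 are given with values outside this rule. There were 17 alternative fits: a pseudocount of 0.1, no filter or one at 2 FPKM, equal summed FPKM, median-of-ratios and quantile scaling, no trend, the replicate block, sample weights, voom on recovered reads with the recovered totals as library sizes, each library left out and, added after the data were seen, scaling without mitochondrially encoded genes. Also added then were the counts without overlap under other scalings and without each library, and the levels relative to markers.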

Additional observations from a re-analysis of the deposited data

How the results depend on the processing

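No gene of the 16005, none of the 10 and none of the pathway genes passed the adjusted threshold in limma or in any of the 17 alternative fits. The smallest adjusted p of any gene was 0.119, with sample weights. Unadjusted, 1533 of the 16005 genes (9.58%) had a p under 0.05. The number was 887 without NC 1, 948 without SFRP2-siRNA 2, 1970 without NC 2 and 1491 in voom on recovered reads. It was 1185 under median-of-ratios scaling, 1156 under quantile normalization and 1929 with the replicate block. Of the 10 genes, 1 had such a p. The number was 2 of 10 under median-of-ratios scaling, quantile normalization and the replicate block. With a library left out it was 1 to 3 of 10 (3 without NC 1, 2 without SFRP2-siRNA 2). Genes of the 10 without overlap numbered 2 under median-of-ratios scaling (13.2% of all genes) and 1 to 4 with a library left out (23.1% to 34.5% of all genes). Of the 53 pathway genes, 9 did not overlap, 3 when mitochondrially encoded genes were left out of the scaling (10.3% of all genes), and 11 to 16 with a library left out.

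The sign of the fold change was kept in 144 of 168 alternative fits of the 10 genes, and in all fits of Ereg, Epgn, Hbegf, Btc and Fgf7. The fold change of Fgf7 was lowest without NC 1 (0.67) and highest without NC 2 (1.07), and its adjusted p lay between 0.226 and 0.843. The other 5 genes reversed. Median-of-ratios scaling gave −0.045 for Areg, −0.14 for Egfr, −0.0088 for Fgf2 and −0.040 for Fgf10. Quantile normalization gave −0.031 for Areg, −0.10 for Egfr, −2.077e-05 for Fgf2 and −0.034 for Fgf10. Scaling without mitochondrially encoded genes gave −0.0084 for Areg, −0.093 for Egfr and −0.017 for Fgf10. Sample weights gave 0.034 for Tgfa, −0.030 for Egfr, −0.077 for Fgf2 and −0.040 for Fgf10. With 1 library left out the range was −0.20 to 0.25 for Areg, −0.63 to 0.041 for Tgfa, −0.18 to 0.15 for Egfr, −0.059 to 0.28 for Fgf2 and −0.057 to 0.12 for Fgf10. The median-of-ratios and quantile scalings moved the median of all genes from 0.13 to 0.00 and 0.02. The cause of the reversals was otherwise not tested.

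Samples sharing a replicate number correlated at −0.047, −0.151 and 0.38 in their deviations from the group means, so the numbers were not taken as pairs. The replicate block left 0 genes past the threshold, with a smallest adjusted p of 0.193, and put 1929 genes at an unadjusted p under 0.05.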
